A study of Homo sapiens with 2 samples.

Results

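The miR-15/16 family in FaDu cells was followed through 7 mature miRNAs of the 2038 listed in each library: the 5p arms miR-16-5p, miR-15b-5p, miR-15a-5p, miR-424-5p and miR-195-5p, which share bases 2 to 8, and the passenger arms miR-16-2-3p and miR-424-3p. They were taken by name, and all 7 were found in both libraries. FaDu, written FadU in the labels, is an established cell line of head and neck squamous cell carcinoma. The spheres were the line expanded in DMEM-F12 supplemented with N2 Plus, bFGF and EGF, each growth factor at 10 ng/ml, and the labels call them sphere-derived cancer stem cells. The parental cells were kept in RPMI-1640 with 10% fetal bovine serum. Both carried penicillin-streptomycin, no genetic change is named for either, and medium, serum and growth form differed together. Each group was sequenced as a single small RNA library, so the differences have no replicate check and no p-value is given.

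miRNAs of this family pair through bases 2 to 8, the seed, with sites in messenger RNAs such as those of D-type cyclins and of the survival factor BCL2, and are known as brakes on the cell cycle. miR-15a and miR-16 became known through the loss of their shared locus in chronic lymphocytic leukaemia. Each hairpin releases a duplex of both its arms, of which the guide arm is mostly kept in Argonaute and the passenger arm is mostly degraded.

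The mature sequences are shown because the family is defined by them. They come from RefSeq on GRCh38.p14, which matched all 7 names, and are written 5′ to 3′ with bases 2 to 8 in capitals.
miR-16-5p: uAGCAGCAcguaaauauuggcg
miR-195-5p: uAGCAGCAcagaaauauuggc
miR-15a-5p: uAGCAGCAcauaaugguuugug
miR-15b-5p: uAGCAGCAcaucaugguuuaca
miR-424-5p: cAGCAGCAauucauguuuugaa
miR-16-2-3p: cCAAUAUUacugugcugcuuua
miR-424-3p: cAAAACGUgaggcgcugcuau
The 5p arms have 1 seed and differ behind it. Counted from the 5′ end, miR-195-5p differs from miR-16-5p by G10A and U11G over 21 compared positions, and miR-15a-5p from miR-15b-5p by C12A, A20G, C21U and A22G over 22. The passenger arms have other seeds. Among the 1714 names with a RefSeq sequence, 6 have the seed of miR-16-5p, and the one outside the 7 members is miR-497-5p. The other 324 names were not searched.

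The family comes from 4 clusters, and for each a pair of neighbouring hairpins is given here. On GRCh38.p14, MIR15B (chr3:160404588-160404685, plus strand) and MIR16-2 (chr3:160404745-160404825, plus strand) lie 59 bases apart in an intron of SMC4, a condensin subunit gene, per GENCODE 29. MIR15A (chr13:50049119-50049201) and MIR16-1 (chr13:50048973-50049061), both on the minus strand, lie 57 bases apart within the non-coding gene DLEU2, MIR16-1 in an intron and MIR15A overlapping an annotated exon. MIR195 (chr17:7017615-7017701) and MIR497, both on the minus strand, lie 209 bases apart and overlap exons of MIR497HG. MIR424 (chrX:134546614-134546711, minus strand) overlaps an exon of MIR503HG and lies 215 bases from MIR503. The deposited files hold no coordinates, and the genome named in the submitters' processing notes is hg19. miR-16-5p is the same sequence from MIR16-1 and MIR16-2, and its value cannot be divided between chromosomes 13 and 3.

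The deposited RPKM values summed to 5509071 in the sphere library and 26530004 in the parental library. Values were therefore also set as parts of 1000000 of the column sum, called normalised RPKM here, and a log2 fold is that of (normalised RPKM + 0.5) in spheres over parental. Names with a mean of 10 or more normalised RPKM were taken as measured, and 269 names reached that level. All 7 members were among them. A fold of at least 2 counted as higher or lower. Reads were estimated by taking the commonest product of RPKM and mature length as 1 read. On that estimate, 683674 miRNA reads in the sphere library and 4550662 in the parental library stood behind the values, 12.1% and 58.5% of the reads the RPKM refers to. Intervals are 95% exact (Clopper-Pearson) counting intervals from those reads. They compare these 2 libraries only and leave out PCR and culture variation. Fewer cells of a type and less miRNA per cell cannot be told apart in such bulk libraries.

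The markers of the labelled cell type were present: all 5 listed squamous epithelial miRNAs were measured, at a summed 83300 normalised RPKM in spheres and 37310 in parental cells. Of these, 2 were at least 2-fold higher: miR-203a (35056.5 in spheres, 2698 in parental cells) and miR-141-3p (12264 and 2710). miR-31-5p, miR-200c-3p and miR-205-5p were within 2-fold, and miR-205-5p was slightly lower in spheres (19458 and 21938). The blood list had 1 of 7 measured, with summed levels of 241 in spheres and 745 in parental cells, most of it miR-486-5p. Without miR-486-5p the list went the other way, at a summed 34.1 in spheres and 3.78 in parental cells. None of these 6 names was measured, and their values rest on few reads. A single read on 22 nt is worth 1.47 normalised RPKM in spheres and 0.22 in parental cells. miR-150-5p had 13.2 normalised RPKM in spheres and 0 in parental cells, on about 9 and 0 estimated reads. miR-142-5p had 12.3 in spheres and 3.25 in parental cells, on about 8 and 14 reads. miR-142-3p had 2.80 in spheres and 0 in parental cells, on about 2 and 0 reads. The erythroid miR-451a had 5.86 in spheres and 0.44 in parental cells, on about 4 and 2 reads. The erythroid miR-144-3p was at 0 in both libraries. miR-16-5p is abundant in red cells too, and the part of blood-derived RNA in its level was not tested. The mesenchymal list had 1 of 5 measured, at a summed 76.5 in spheres and 28.9 in parental cells.

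The family was almost entirely miR-16-5p in both libraries. The 5p arms summed to 6284 normalised RPKM in spheres and 6987 in parental cells, or 0.628% (0.610% to 0.647%) and 0.699% (0.691% to 0.706%) of the miRNA signal. The log2 fold of the sum was -0.15 (-0.20 to -0.11), well inside 2-fold. On the deposited scale the sum was 34620 RPKM in spheres and 185352 RPKM in parental cells, a log2 fold of -2.42, beside a median of -2.25 over all 269 measured names. miR-16-5p made up 93.4% of the summed 5p level in spheres (92.6% to 94.1%) and 94.2% in parental cells (93.9% to 94.4%).

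Within the remainder the make-up differed. miR-15b-5p held 2.85% of the 5p sum in spheres (2.37% to 3.39%) and 3.32% in parental cells (3.12% to 3.52%), intervals that overlap. miR-15a-5p held 2.51% in spheres (2.07% to 3.03%) and 1.53% in parental cells (1.40% to 1.68%), intervals that do not. miR-195-5p held 0.759% in spheres (0.516% to 1.07%) and 0.237% in parental cells (0.185% to 0.298%), again without overlap. miR-424-5p held 0.454% in spheres (0.275% to 0.704%) and 0.718% in parental cells (0.628% to 0.818%), intervals that overlap. Overlap alone does not settle a difference. The log2 fold of miR-16-5p minus that of miR-424-5p was 0.65 (0.007 to 1.45), an interval that barely excludes 0. In parental cells miR-195-5p lay below miR-424-5p without overlap of their intervals, while in spheres the intervals of these 2 members overlap and give no order.

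**Figure D1:**
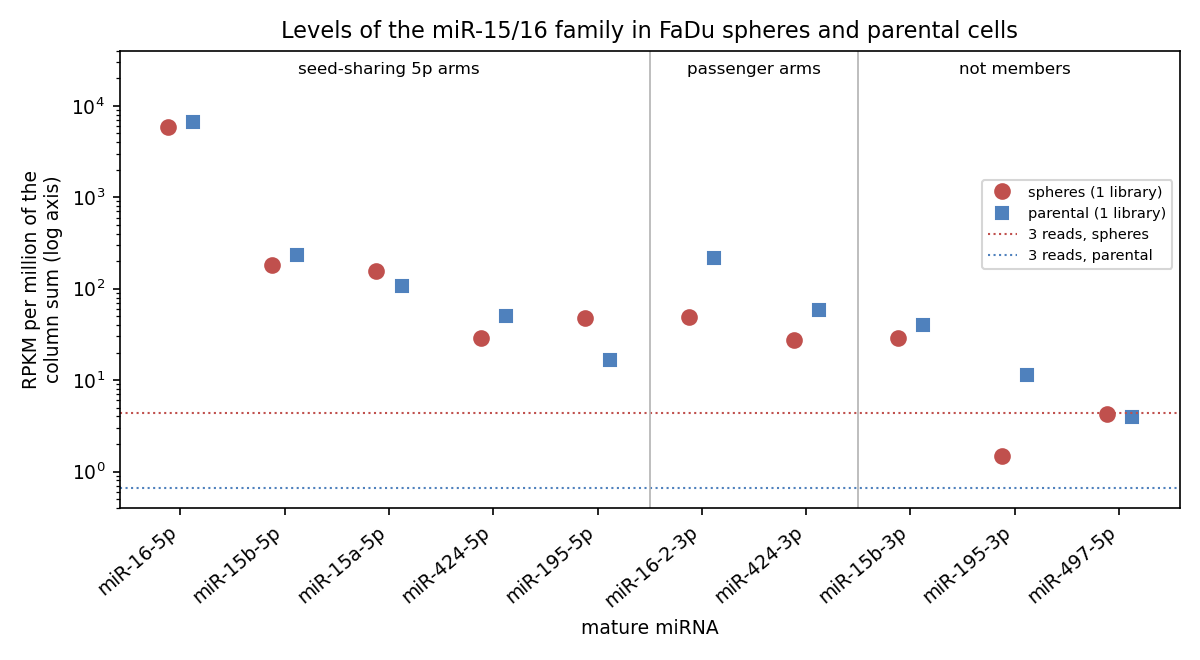
Level of each mature miRNA in the sphere library (circles) and the parental library (squares), as normalised RPKM on a log axis, with 1 library per group and dotted lines at the level of 3 reads on 22 nt. miR-16-5p stands above every other arm in both libraries, at 5871 in spheres and 6581 in parental cells, and the widest gap among the 7 members is that of miR-16-2-3p, at 49.1 in spheres and 219 in parental cells.

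Of the 7 members, 1 was at least 2-fold higher in spheres, beside 23% of all 269 measured names, and 2 were at least 2-fold lower, beside 19% of all. With 7 members these counts lie near the background and are no result about the family as a set. The median log2 fold of the 7 was -0.37, and that of all measured names 0.02, with quartiles at -0.70 and 0.84.

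miR-16-5p, the main member, had 5871 normalised RPKM in spheres and 6581 in parental cells, on about 4006 and 29894 estimated reads. As deposited it had 32343 RPKM in spheres and 174592 RPKM in parental cells. The log2 fold after normalisation was -0.16 (-0.21 to -0.12), an interval that leaves out the choice of scaling. It was -0.38 with the upper quartile and -0.44 with the column sum without the 20 most abundant names. The rank of miR-16-5p by level was 27 in spheres and 20 in parental cells. The 3 names with the closest log2 fold, out of 41 with a mean within 4-fold of its own, were miR-205-5p at -0.17, miR-30c-5p at -0.13 and miR-10b-5p at -0.28. This likeness rests on 1 fold over 2 libraries.

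miR-15b-5p, processed from the same SMC4 intron as miR-16-2, had 179 normalised RPKM in spheres and 232 in parental cells (987 and 6146 RPKM as deposited). Its log2 fold was -0.37 (-0.65 to -0.099). miR-15a-5p, the partner of miR-16-1 on chromosome 13, had 158 normalised RPKM in spheres and 107 in parental cells (870 and 2844 RPKM as deposited). Its log2 fold was 0.56 (0.24 to 0.86), so the 2 miR-15 paralogs lay on opposite sides of 0 after normalisation, though both within 2-fold. The difference of miR-15b-5p minus miR-15a-5p was -0.93 (-1.35 to -0.52), which does not depend on the scaling.

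miR-195-5p was the 1 member that was at least 2-fold higher. It had 47.7 normalised RPKM in spheres and 16.5 in parental cells, on about 31 and 72 estimated reads, a 2.88-fold difference (1.83 to 4.45). As deposited it had 263 RPKM in spheres and 439 RPKM in parental cells, a log2 fold of -0.74, so it was higher as a share of miRNA and lower per read behind the RPKM. It shares 19 of 21 bases with miR-16-5p, which had 123 times its normalised level in spheres and 398 times in parental cells. How reads near both sequences were assigned is not given in the sources used here, and their part in its value was not tested.

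miR-424-5p, from the X-linked cluster, had 28.5 normalised RPKM in spheres and 50.2 in parental cells, on about 19 and 228 estimated reads. Its log2 fold was -0.81 (-1.56 to -0.15). The upper quartile and the column sum without the 20 most abundant names made it -1.02 and -1.07, past 2-fold.

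The arms named as passengers held the 2 lower calls. Of these, miR-424-3p was not a minor arm here, at 96.9% of miR-424-5p in spheres and 115% in parental cells. miR-16-2-3p had 49.1 normalised RPKM in spheres and 219 in parental cells, on about 33 and 995 estimated reads, a 4.46-fold deficit in spheres (3.16 to 6.50). As deposited it had 270.4 RPKM in spheres and 5812 RPKM in parental cells, and its log2 fold was -4.42 there and -2.15 after normalisation. miR-424-3p had 27.6 normalised RPKM in spheres and 57.8 in parental cells, on about 18 and 251 estimated reads. It was 2.09-fold lower (1.30 to 3.59), an interval that reaches well inside 2-fold, and a pseudocount of 5 in place of 0.5 ended the call (log2 fold -0.95).

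On the deposited scale all 7 members were below 0, with log2 folds between -4.42 and -0.74. There 6 of the 7 were at least 2-fold lower, beside 79.6% of all measured names, and none was at least 2-fold higher, beside 6.32%. The miRNA part of the reads differs between the libraries on that scale, and its share of these deficits cannot be told apart from a lower level of each miRNA.

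**Figure D2:**
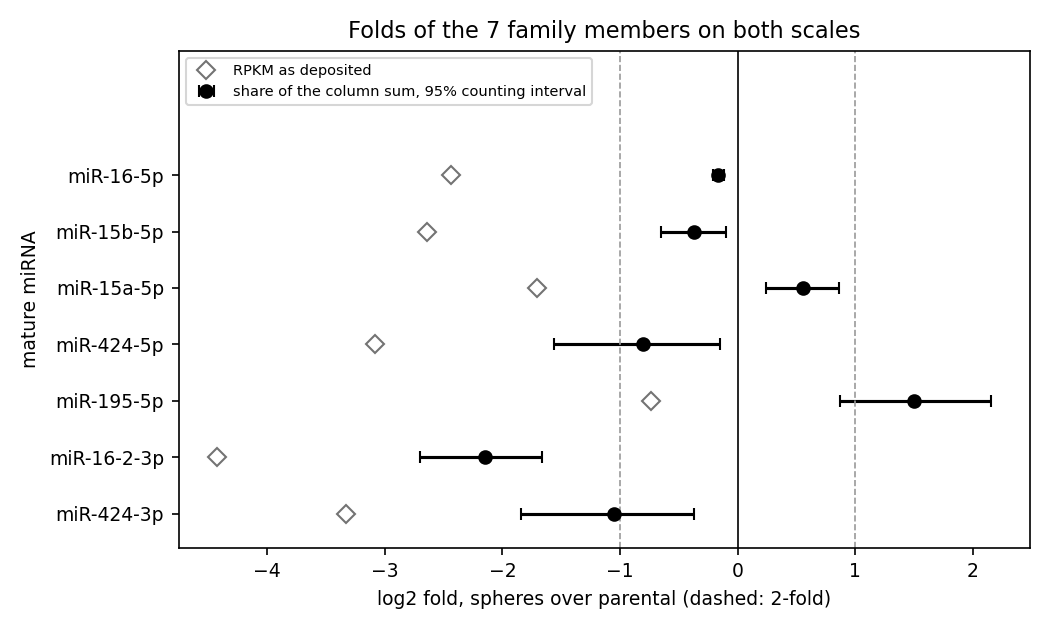
Log2 fold of each of the 7 members, spheres over parental, after normalisation to the column sum (filled circles with 95% counting intervals, 1 library per group) and as deposited (open diamonds), with dashed lines at 2-fold. miR-195-5p at 1.50 and miR-15a-5p at 0.56 lie above 0 only after normalisation, and miR-16-2-3p is lowest on both scales, at -2.15 and -4.42.

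Differences between members do not depend on the scaling. Of the 21 pairs, 17 had a counting interval of the difference in log2 fold that excluded 0, and so did 8 of the 10 pairs of 5p arms. The same share was not taken over pairs of all measured names, so these counts are no result about the family as a set. In the order of the folds, miR-15a-5p minus miR-195-5p was -0.97 (-1.66 to -0.23) and miR-16-5p minus miR-15a-5p was -0.72 (-1.03 to -0.41). The next neighbours could not be separated by their counts: miR-16-5p minus miR-15b-5p was 0.21 (-0.068 to 0.50), miR-15b-5p minus miR-424-5p was 0.45 (-0.26 to 1.29), and miR-424-5p minus miR-424-3p was 0.25 (-0.83 to 1.27). miR-16-2-3p stood apart at the low end, at -1.09 (-2.01 to -0.17) relative to miR-424-3p.

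The arms of a hairpin are made together, so their ratio within a library is free of the scaling. The hairpin of miR-16-2 is shown with that of miR-195, since the 3p arms of both were scarce in spheres and have the same seed. Capitals mark the mature arms, the 5p arm first.
MIR16-2: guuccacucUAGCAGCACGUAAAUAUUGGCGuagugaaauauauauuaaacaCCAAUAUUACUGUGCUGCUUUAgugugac
MIR195: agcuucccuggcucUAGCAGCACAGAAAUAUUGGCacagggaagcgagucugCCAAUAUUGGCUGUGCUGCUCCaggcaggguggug
miR-16-2-3p stood at 0.836% of miR-16-5p in spheres and 3.33% in parental cells. The log2 ratio of the arms was -6.89 in spheres and -4.91 in parental cells, a shift of -1.98. Because miR-16-5p also comes from MIR16-1, this is not the arm ratio of 1 hairpin. The other passenger arm of that guide, miR-16-1-3p, was listed at 0 in spheres and had 0.70 normalised RPKM in parental cells, on about 3 estimated reads. A value of 0 on 22 nt in spheres allows up to 3 reads, or 4.40 normalised RPKM.

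The arms of miR-195 were further apart between the libraries, on very few sphere reads. miR-195-3p, not among the 7 and below the level counted as measured, had 1.47 normalised RPKM in spheres and 11.2 in parental cells, on 1 and 51 estimated reads. It was 7.66-fold lower (1.31 to 308), while miR-195-5p of the same hairpin was higher. It stood at 3.07% of miR-195-5p in spheres and 67.8% in parental cells, and the difference of miR-195-3p minus miR-195-5p in log2 fold was -4.46 (-9.83 to -1.76).

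The arm ratios of miR-424 and miR-15b differed between the libraries by less than counting error. miR-424-3p stood at 96.9% of miR-424-5p in spheres and 115% in parental cells, with a difference in log2 fold of -0.25 (-1.27 to 0.83). miR-15b-3p stood at 16.1% of miR-15b-5p in spheres and 17.5% in parental cells, with a difference of -0.12 (-0.89 to 0.64). It had 28.9 normalised RPKM in spheres and 40.5 in parental cells. Within the SMC4 intron the 3p arms therefore differed from each other: miR-16-2-3p minus miR-15b-3p was -1.67 (-2.59 to -0.80). miR-15a-3p was listed at 0 in spheres and at 0.33 normalised RPKM in parental cells, on fewer than 3 reads.

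Among hairpins with both arms measured, a lower ratio of the minor arm was common in spheres. In 48 hairpins both arms were measured, and the ratio of the less abundant arm to the more abundant one was lower in spheres in 35 of them, with a median shift of -0.51. It was at least 2-fold lower in 31.2% of the 48 and at least 2-fold higher in 8.33%. The level counted as measured is a mean over both libraries, so an arm can pass through the library where it is higher. The part of such arms in these counts was not tested. The guide arms miR-30c-5p and miR-125b-5p enter with more than a single hairpin. Other guides are paired with a numbered hairpin, such as miR-24-3p with MIR24-2 (shift -3.13) and miR-181a-5p with MIR181A2 (-2.47). These can have further hairpins, and how many do was not counted. As for miR-16-5p, ratios of guides with several hairpins are not those of a single hairpin. The shift of miR-16-2-3p over miR-16-5p was the 7th lowest. miR-15b-3p stood in place 34 from the lowest. For miR-424, where the 3p arm had the higher mean, the ratio of miR-424-5p to miR-424-3p shifted by 0.25 and stood in place 37. The sphere library has fewer reads, and the part of depth in these ratios was not tested.

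**Figure D3:**
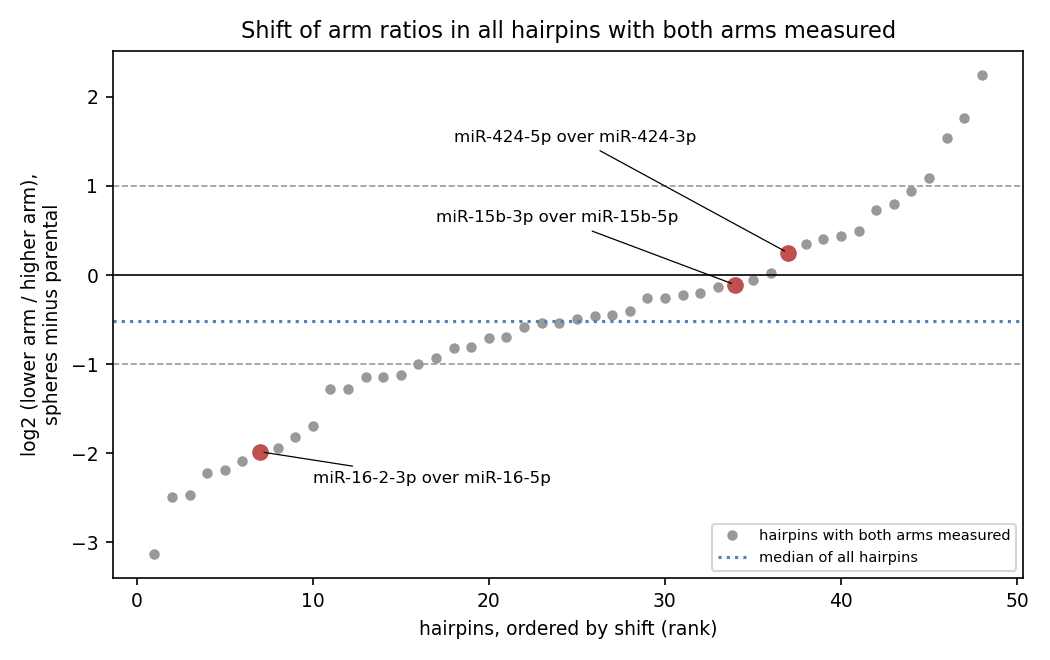
Shift of the log2 ratio of the less to the more abundant arm, spheres minus parental, for the 48 hairpins with both arms measured (1 library per group), ordered from the lowest; the dotted line is the median of -0.51. miR-16-2-3p over miR-16-5p lies among the lowest at -1.98, and the ratios of miR-15b and miR-424 lie near 0.

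Relatives outside the 7 were mostly scarce. miR-497-5p, which has the family seed and the cluster of miR-195, had 4.22 normalised RPKM in spheres and 3.96 in parental cells, on about 3 and 17 reads. The interval of miR-195-5p minus miR-497-5p, -0.66 to 3.79, does not separate the 2 cluster partners. miR-503-5p, whose sequence is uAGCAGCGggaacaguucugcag and whose seed thus ends in another base, was listed at 0 in spheres and had 0.26 normalised RPKM in parental cells. None of the 10 listed partners of the miR-195 and miR-424 clusters found in the files was measured, and 3 were at 0 in both libraries. They summed to 26.8 normalised RPKM in spheres and 30.7 in parental cells. miR-450b-5p of the X-linked cluster had 4.40 in spheres and 10.5 in parental cells, miR-450a-5p 6.01 in spheres and 9.69 in parental cells, and miR-542-3p 10.7 in spheres and 4.17 in parental cells. Their estimated sphere reads were about 3, 4.1 and 7.33 in that order, and the counting interval of each fold includes an equal level.

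miR-103a-3p and miR-107, which target the processing enzyme Dicer, carry the seed bases of miR-16-5p from base 1 and not from base 2, as their sequences show.
miR-103a-3p: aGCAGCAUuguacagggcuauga
miR-107: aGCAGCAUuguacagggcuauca
miR-103a-3p had 5698 normalised RPKM in spheres and 1689 in parental cells, so it was close to miR-16-5p in spheres and well below it in parental cells. miR-107 had 1532 in spheres and 437 in parental cells. Relative to miR-16-5p their log2 folds lay 1.92 (1.85 to 1.99) and 1.98 (1.86 to 2.09) higher. The pair differs by the single substitution G22C, counted from the 5′ end of miR-103a-3p, so the division of reads between them is uncertain. miR-646, which starts its seed with the same bases as the family, was listed at 0 in both libraries.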

How the data were processed

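The authors deposited 1 table per library. It lists 2038 mature miRNA names with an RPKM value (reads per kilobase and 1000000 reads), per the file headers, and no counts. Per the labels' protocols, libraries were made with the TruSeq small RNA kit from 1 µg of total RNA with size fractionation. The build is hg19, per the submitters' processing notes. The aligner was not given in the sources used here, nor were the miRNA release and the handling of reads that match several miRNAs.

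RPKM was rescaled to 1000000 per column. Reads were estimated as RPKM times the RefSeq mature length (1714 names, 22 nt for the other 324) over the commonest such product, taken as 1 read. That puts 5630047 reads behind the sphere RPKM and 7782765 behind the parental RPKM. Of the values under 50 estimated reads, 38.0% of 429 (spheres) and 40.8% of 556 (parental) were whole reads within 0.005, and 62.0% and 65.6% whole multiples of a 12th of a read, so many values include fractions of reads. Folds do not use this estimate, while intervals do. Intervals of differences between miRNAs are exact conditional intervals of the odds ratio of reads rounded to whole numbers. The steps were checked on simulated whole reads, which does not cover the fractions of reads in these values. Alternatives were 4 other scalings, RPKM as deposited, a pseudocount of 5, other filters and shares of estimated reads without division by length (Python 3.11.15, scipy 1.17.1). The members and lists were chosen with earlier results of these data known. The names in the text follow a rule: all members, the other arms of their hairpins, names with the same seed, cluster partners, the related miR-103a, miR-107 and miR-646, markers of the cell type lists, and the 3 names most like miR-16-5p.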

Additional observations from a re-analysis of the deposited data

How the results depend on the processing

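With RPKM as deposited, the log2 fold of the summed 5p arms became -2.42, in place of -0.15, and that of miR-195-5p turned negative (-0.74), while 17 names were higher and 214 lower, in place of 62 and 51. This lies in its construction, since the miRNA total differs between the libraries. The summed 5p arms had -0.37 with the upper quartile and -0.42 with the column sum without the 20 most abundant names. These 2 scalings moved log2 folds by -0.22 and -0.27. Both made 4 of the 7 members at least 2-fold different, in place of 3, by adding miR-424-5p. Of all 269 measured names, the upper quartile made 55 higher and 65 lower, and the column sum without the 20 made 55 higher and 66 lower. Under the trimmed mean 3 members were past 2-fold, beside 60 names higher and 52 lower. The median of ratios also gave 3 members, beside 61 names higher and 52 lower. A pseudocount of 5 left 2 members, without miR-424-3p, beside 59 names higher and 42 lower. It gave arm shifts of -1.89 (miR-16-2) and -0.23 (miR-424). With no filter 193 names were higher and 180 lower, and at a mean of at least 100 normalised RPKM 23 and 18. That filter leaves 4 members, without miR-195-5p and both arms of miR-424, for which it gives no value. Shares of estimated reads, without the division by length that RPKM holds, moved no member's fold beyond its counting interval. The 18 to 33 sphere reads of miR-424-3p, miR-424-5p, miR-195-5p and miR-16-2-3p limit their precision. No paired analysis was possible because each group holds 1 library, and no replicate could be left out.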

Other observations

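Among the 1714 names with a RefSeq sequence, miR-16-2-3p and miR-195-3p were the 2 with their seed, a search made after their values were seen. Both were lower in spheres, on about 33 and 1 estimated sphere reads. No other of these 1714 names had the seed of miR-424-3p.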
